A study of Mus musculus with 6 samples.

Results

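The lysosomal cathepsins examined here were 10 genes, Ctsa, Ctsb, Ctsc, Ctsd, Ctsf, Ctsh, Ctsl, Ctso, Ctss and Ctsz. They were taken by gene symbol from a table of 53342 genes, and cathepsin K was kept outside the group by its definition. RNA had been sequenced from dental pulp of WT C57BL/6 mice and of homozygous Mmp13-/- mice on the same background, which lack the collagenase MMP13 in every tissue. There were 3 independent biological samples per genotype, all from untreated mice aged 3 months. The animals were male. The WT replicates are numbered 2, 4 and 5, and those of Mmp13-/- mice 1, 2 and 6. Molars and a column extraction kit are given in the sample labels, whereas incisors and TRIzol are given in the methods, so the tooth type cannot be told apart from these sources. Among the sample titles only those of WT name the molar, and those of Mmp13-/- name no tooth. Whether the tooth type was the same in both genotypes therefore cannot be told from the titles. The question addressed is whether cathepsins, which degrade matrix by a route separate from the metalloproteinases, were expressed at another level when MMP13 was missing.

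Cathepsins are made as inactive precursors, tagged with mannose 6-phosphate in the Golgi, carried to the lysosome by receptors and activated there by acid and by proteolysis. Most are cysteine proteases, cathepsin D is an aspartic protease, and cathepsin A is a serine carboxypeptidase. They break down proteins taken up by cells, collagen fragments among them, and some are secreted. Macrophages, dendritic cells and osteoclasts are rich in several of them, and cystatins and stefins hold the cysteine cathepsins in check.

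Of the 8 cysteine members, 3 rose in Mmp13-/- pulp, namely Ctss by 3.76-fold, Ctsh by 2.42-fold and Ctso by 1.95-fold. Of these, Ctso no longer passed the test with a correction for GC content. Ctsf, a cysteine cathepsin, and Ctsa fell to 0.661 and 0.722 of the WT level, but with a correction for GC content both changes turned positive and neither passed the test. Ctsb, Ctsc, Ctsd, Ctsl and Ctsz did not pass, though with GC correction Ctsc was called lower and Ctsz higher. Each gene was called at an adjusted p under 0.05 in the quasi-likelihood test of edgeR, adjusted by Benjamini-Hochberg over 24534 genes. The 5 calls among the 10 cathepsins stand against 51.6% of all genes tested, with 27.3% of genes called higher and 24.3% called lower. Only Ctss and Ctsh were called with a change over 2-fold, as were 30.1% of all genes. Samples of the genotypes did not overlap for 6 of the 10 cathepsins and for 60.9% of all genes. The median log2 fold change was -0.10 over the cathepsins and 0.10 over all genes tested, and GC correction moved the former to 0.27. As a set, the cathepsins were called about as often as other genes.

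The cysteine cathepsins share a catalytic cysteine, and how far their sequences match around it bears on whether reads can be assigned to the right gene. The stretch of coding sequence around that cysteine is printed for the 4 cysteine members that were called, from GENCODE M21 transcripts on GRCm38, with the cysteine codon in capitals.
Ctss active-site stretch: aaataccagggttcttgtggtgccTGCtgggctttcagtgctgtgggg
Ctsh active-site stretch: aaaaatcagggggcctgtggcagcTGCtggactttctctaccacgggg
Ctso active-site stretch: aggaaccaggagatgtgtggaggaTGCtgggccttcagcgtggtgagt
Ctsf active-site stretch: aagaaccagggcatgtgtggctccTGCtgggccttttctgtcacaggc
Over these 48 bases the 28 pairs among the 8 cysteine cathepsins were identical at 39.6% to 70.8% of positions, with a median of 55.2%. Ctss and Ctsh matched at 68.8% and Ctss and Ctso at 64.6%. No stretch of 50 bases was shared between transcripts of any pair of the 10 genes. Ctsd was the one with substantial sharing elsewhere, since 32.4% of its stretches of 50 bases also occur in Gm49369, a neighbouring readthrough gene on the same strand. For Ctsl 6.5% were shared with other genes.

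Library totals lay between 28442936 and 29980236 counts for WT and between 21561420 and 26547121 for Mmp13-/- mice, without overlap. Mmp13 itself was low in every library labelled as knockout, with 8.68, 30.2 and 63.4 normalized counts in Mmp13-/- samples 1, 2 and 6 against 1009.6, 1071.7 and 825.7 in WT. A normalized count is a count divided by its TMM-scaled library size and brought to the scale of the mean library. In Mmp13-/- sample 6 the 10 most abundant genes held 53.7% of the counts, against 22.6% to 27.2% in the other 5 libraries. Odorant and vomeronasal receptor genes, silent in pulp as far as is known, summed to 300.8 to 1169.1 CPM (counts scaled to equal library totals) in Mmp13-/- and to 17.7 to 20.5 in WT. At the rate seen over those genes, background reads would make up at most 11.0% of the Ctso counts, 5.81% of Ctsh and 2.10% of Ctss in sample 6. In bulk pulp, fewer cells of a type and less RNA per cell cannot be told apart.

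Ctss encodes cathepsin S, which trims the invariant chain of MHC class II in antigen-presenting cells, and lies at chr3:95526786-95556403 on the plus strand. Normalized counts of Ctss were 150.2, 129.8 and 184.7 for WT replicates 2, 4 and 5, against 601.8, 649.9 and 491.1 for Mmp13-/- replicates 1, 2 and 6. The lowest Mmp13-/- sample was far above the highest WT sample. The log2 fold change was 1.91 ± 0.18 (SE) with an adjusted p of 8.92e-05 in edgeR. It lay between 1.76 and 2.11 in the 15 alternative fits and was called in all 15. Ctss was also the one cathepsin called in a test against a 2-fold change itself.

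Ctsh encodes cathepsin H, an aminopeptidase of lysosomes, and lies at chr9:90054152-90076089 on the plus strand. Normalized counts of 293.7, 281.3 and 302.5 in WT stood against 764.2, 766.9 and 587.8 in Mmp13-/-. WT samples were almost level, and every Mmp13-/- sample was well above them. Its log2 fold change of 1.27 ± 0.15 had an adjusted p of 0.000191 in edgeR, and it was called in all 15 alternative fits at 1.15 to 1.61.

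Ctso, at chr3:81932601-81956725 on the plus strand, encodes cathepsin O, a widely expressed cysteine protease. The WT samples had 244.6, 121.4 and 165.7 normalized counts and the Mmp13-/- samples 359.5, 325.4 and 353.3. The WT samples were widely spread, with a coefficient of variation of 35.2%, and none reached the Mmp13-/- samples, which varied by 5.24%. The log2 fold change was 0.96 ± 0.24 with an adjusted p of 0.00692 in edgeR. It dropped out with GC correction, at 0.48 with an adjusted p of 0.11, and with limma on the deposited log2 values, at an adjusted p of 0.0583.

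Without Mmp13-/- sample 6 the changes of these 3 genes were 2.02 for Ctss, 1.39 for Ctsh and 0.96 for Ctso on the log2 scale, all still called.

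**Figure D1:**
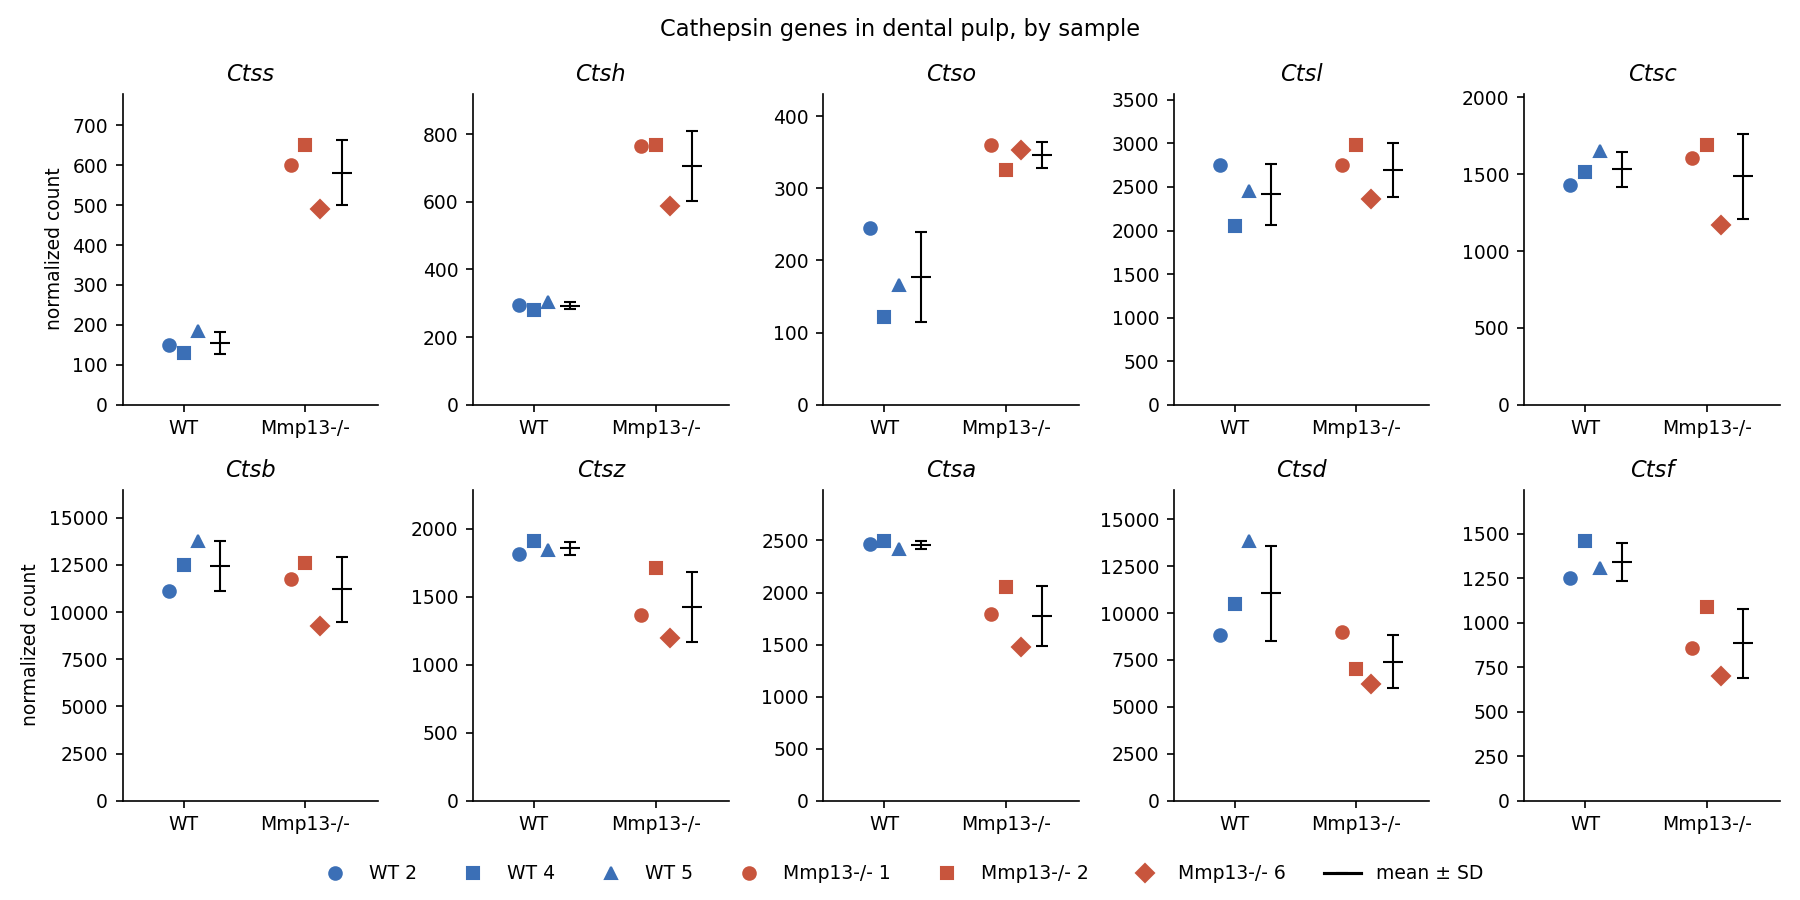
Normalized counts of the 10 cathepsin genes in each dental pulp sample, with 3 WT samples in blue, 3 Mmp13-/- samples in red and the mean ± SD beside each group. Every Mmp13-/- sample lies above every WT sample for Ctss, Ctsh and Ctso and below every WT sample for Ctsz, Ctsa and Ctsf, a direction that GC correction reverses for the last 3.

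Ctsf encodes cathepsin F, known in macrophages and in invariant chain processing, and lies at chr19:4855130-4860918 on the plus strand. Normalized counts of Ctsf fell from 1251.4, 1457.4 and 1309.9 in WT to 859.7, 1088.7 and 701.8 in Mmp13-/-. All Mmp13-/- samples were below all WT samples, with sample 6 the lowest. The log2 fold change was -0.60 ± 0.17 with an adjusted p of 0.0154 in edgeR, and it turned to 0.28 with an adjusted p of 0.125 after GC correction. The call was kept in 11 of 15 alternative fits and was also lost without WT sample 4, at an adjusted p of 0.0516.

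Ctsa encodes cathepsin A, also called protective protein because it stabilizes beta-galactosidase and neuraminidase in the lysosome, and lies at chr2:164832873-164841032 on the plus strand. It stood at 2465.9, 2491.5 and 2418.1 normalized counts in WT and at 1790.6, 2049.5 and 1479.7 in Mmp13-/-. The WT samples were nearly equal and all above the Mmp13-/- samples, among which sample 6 was again lowest. A log2 fold change of -0.47 ± 0.15 with an adjusted p of 0.0267 in edgeR became 0.25 with an adjusted p of 0.0972 after GC correction. Only 7 of 15 alternative fits kept the call. Exons of Neurl2 and Pltp on the opposite strand cover 6.9% and 10.5% of the Ctsa exons, and whether the counting used strand is not stated.

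Ctsd encodes cathepsin D, the aspartic endopeptidase of lysosomes, at chr7:142375911-142388038 on the minus strand. It had 8856.9, 10463.6 and 13822.7 normalized counts in WT and 8968.4, 7025.0 and 6232.7 in Mmp13-/-. Mmp13-/- sample 1 exceeded the lowest WT sample, so the groups overlapped. The log2 fold change of -0.58 ± 0.22 missed the threshold with an adjusted p of 0.0506 in edgeR, and was 0.26 after GC correction. Exons of Gm49369 on the same strand cover 34.4% of the Ctsd exons, so the split of reads between these genes is uncertain.

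Ctsz, the carboxypeptidase cathepsin Z, at chr2:174427493-174439039 on the minus strand, had 1816.2, 1908.1 and 1846.0 normalized counts in WT and 1369.4, 1708.5 and 1197.7 in Mmp13-/-. The groups did not overlap, yet the log2 fold change of -0.38 ± 0.16 had an adjusted p of 0.0650 in edgeR. After GC correction Ctsz was called higher, at 0.55 with an adjusted p of 0.0084, so its direction depends on that choice.

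Ctsb, at chr14:63122462-63145923 on the plus strand, encodes cathepsin B, an abundant endopeptidase and peptidyl-dipeptidase. Ctsb had 11106.6, 12519.5 and 13748.8 normalized counts in WT, against 11764.6, 12591.1 and 9252.4 in Mmp13-/-. Cathepsin L, an endopeptidase encoded by Ctsl at chr13:64359337-64370890 on the minus strand, had 2753.0, 2054.0 and 2449.0 in WT and 2751.8, 2978.2 and 2367.0 in Mmp13-/-. Ctsc, at chr7:88278085-88310888 on the plus strand, encodes the dipeptidyl peptidase that activates neutrophil serine proteases. It had 1429.9, 1512.9 and 1652.3 in WT and 1602.1, 1687.5 and 1169.2 in Mmp13-/-. All 3 genes overlapped between genotypes, with log2 fold changes of -0.15 ± 0.19, 0.16 ± 0.16 and -0.04 ± 0.16 for Ctsb, Ctsl and Ctsc. After GC correction Ctsc was called lower, at -0.65 with an adjusted p of 0.00467, while Ctsb at 0.10 and Ctsl at -0.07 were not called.

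GC content moved with these changes. The 4 cathepsins with the most negative log2 fold changes were those with the highest GC content of the longest transcript, Ctsz at 57.3%, Ctsf at 56.6%, Ctsd at 55.9% and Ctsa at 54.5%. Ctsc, Ctso, Ctsl and Ctss had 41.1%, 41.8%, 44.3% and 46.0%, and Ctsb and Ctsh 49.2% and 50.1%. With the correction, 70.6% of all calls were higher in Mmp13-/-, against 53.0% without it, and the all-gene median log2 fold change shifted by 0.18. Total-count scaling and upper-quartile scaling shifted that median by 0.11 and 0.21, with 69.2% and 63.9% of calls higher. Ctss and Ctsh remained the largest positive changes with GC correction, at 1.85 and 1.61 on the log2 scale. Why GC content and change moved together was not tested.

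**Figure D2:**
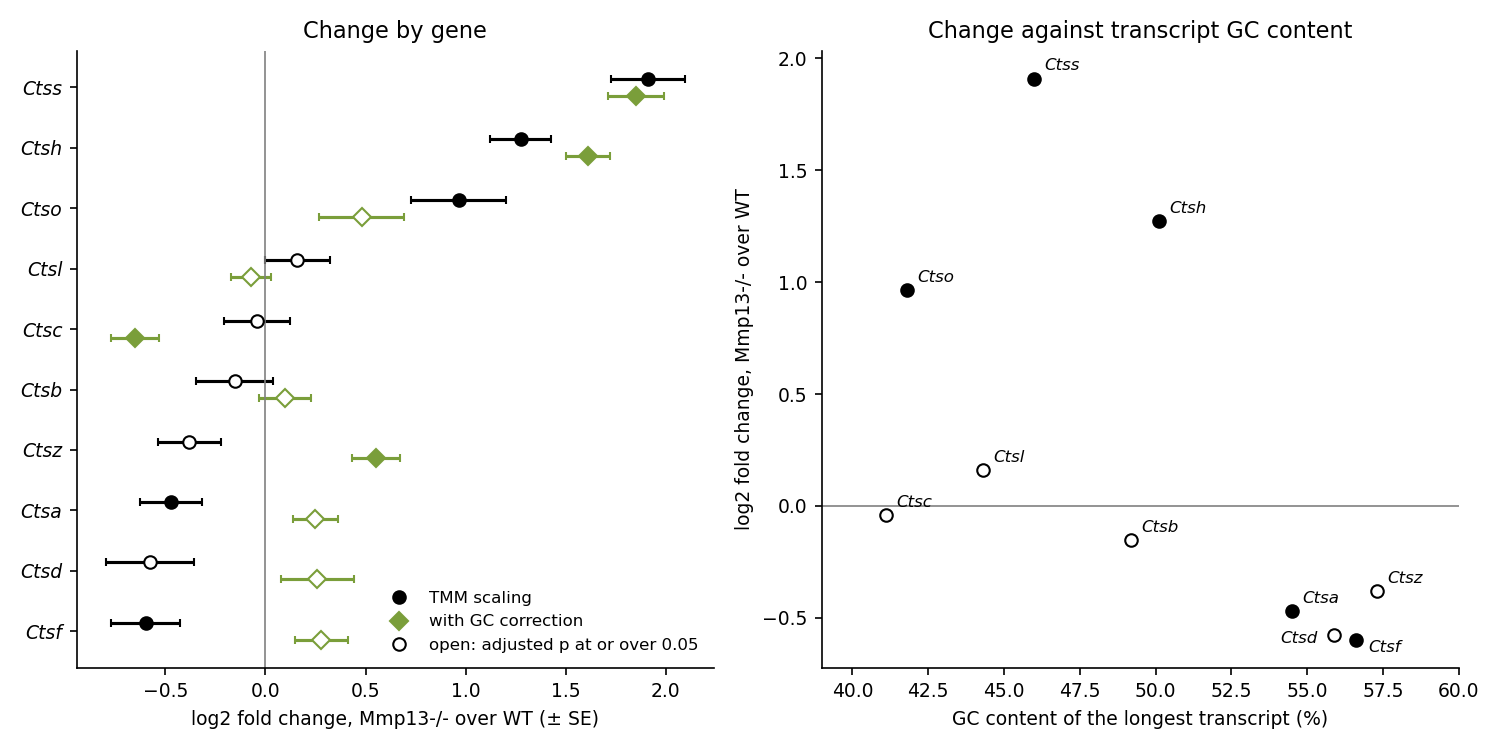
Left, log2 fold change ± SE of each cathepsin, Mmp13-/- over WT, from the edgeR fit with TMM scaling (black circles) and with GC correction (green diamonds), filled where the adjusted p was under 0.05. Right, the TMM-scaled change against GC content of the longest transcript, in which Ctsa, Ctsd, Ctsf and Ctsz lie together at the highest GC and the lowest changes, and change sign with the correction.

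Levels between genes were compared as TMM-scaled CPM per kilobase of merged exon. In WT pulp Ctsd was highest at 171.8 ± 39.4 (SD, n = 3), ahead of Ctsb at 75.3 ± 7.99 and Ctsz at 47.1 ± 1.19, which placed them at percentiles 99.3, 98.6 and 97.7 of the genes tested. Ctsa, Ctsl, Ctsf and Ctsc followed, and the neighbours Ctsf and Ctsc overlapped. Ctss at 4.17 ± 0.75, Ctsh at 2.38 ± 0.09 and Ctso at 1.26 ± 0.45 were the lowest 3, so the genes that rose were those least expressed in WT. In Mmp13-/- pulp the leading order of Ctsd, Ctsb and Ctsz was the same, at 115.2 ± 21.9, 67.7 ± 10.5 and 36.1 ± 6.59. Ctss followed at 15.6 ± 2.19, where it overlapped Ctsl, and Ctsl overlapped Ctsa. Ctsf overlapped both Ctsc and Ctsh, and Ctso remained last at 2.47 ± 0.13. When the length of the longest transcript was used instead, Ctss had rank 7 of 10 in Mmp13-/- and Ctsf rank 5 in WT.

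The per-length levels of the 10 genes summed to 354.0 ± 47.8 in WT and 287.6 ± 40.7 in Mmp13-/-, with overlapping samples. Ctss made up 1.30%, 1.01% and 1.23% of that sum in the WT samples and 5.13%, 5.72% and 5.49% in the Mmp13-/- samples. The share of Ctsh was 0.61% to 0.77% in WT and 1.97% to 2.04% in Mmp13-/-. Ctsd made up 44.2% to 52.9% in WT and 35.7% to 44.1% in Mmp13-/-. The sum was set mainly by the abundant Ctsd, Ctsb and Ctsz. Because the changes of these 3 genes turned positive with GC correction, the order of the sums can depend on that choice, and the sum was not recomputed with it.

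**Figure D3:**
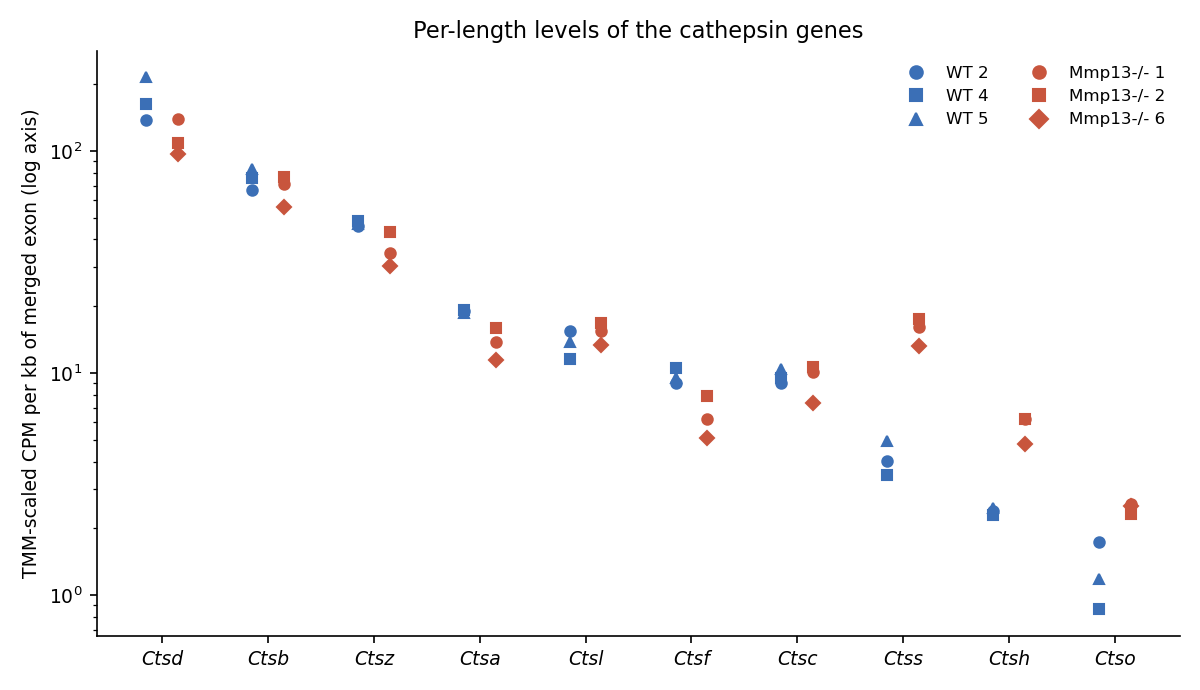
Per-length levels of the 10 cathepsins in each sample on a log axis, in TMM-scaled CPM per kilobase of merged exon, ordered by the WT mean. Ctsd, Ctsb and Ctsz lead in both genotypes, and Ctss moves from among the lowest 3 in WT to the range of Ctsl and Ctsa in Mmp13-/-.

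Promoters are printed for the called genes with an entry in the RefSeq promoter table of GRCm38.p6, which held 8 of the 10 cathepsins in 9 windows, and not Ctsb or Ctsh. Each window of 300 bases runs from 250 before to 50 after the annotated start, 5′ to 3′ on the gene's strand. For the genes that rose, capitals mark the interferon-response core GAAANNGAAA and the PU.1 core GAGGAAGT, on either strand, with overlapping matches merged.
Ctss promoter, chr3:95526536-95526835, plus strand: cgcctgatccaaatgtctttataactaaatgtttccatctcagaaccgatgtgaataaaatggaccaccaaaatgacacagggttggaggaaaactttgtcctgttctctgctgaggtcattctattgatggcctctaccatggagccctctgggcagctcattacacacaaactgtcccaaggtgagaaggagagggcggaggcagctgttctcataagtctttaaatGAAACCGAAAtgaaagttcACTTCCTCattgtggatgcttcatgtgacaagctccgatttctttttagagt
Ctso promoter, chr3:81932351-81932650, plus strand: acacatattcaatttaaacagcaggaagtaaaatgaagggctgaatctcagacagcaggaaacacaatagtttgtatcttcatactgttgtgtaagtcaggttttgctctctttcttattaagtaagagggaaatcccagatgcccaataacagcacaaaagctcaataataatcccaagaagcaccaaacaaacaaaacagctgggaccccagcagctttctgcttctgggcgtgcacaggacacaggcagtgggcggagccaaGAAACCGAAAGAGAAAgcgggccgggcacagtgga
The interferon-response core was present in Ctss and Ctso, 2 of 8 cathepsins, and in 3.99% of all genes in the table. The PU.1 core was found in Ctss and Ctsc, against 3.69% of all genes. For the genes that fell before GC correction, capitals mark the E-box CACGTG, bound by TFEB and related factors, and the longer TCACGTGA that contains it. Of the pair of Ctsa windows, the one printed holds these letters and the other holds none of the motifs.
Ctsa promoter, chr2:164833523-164833822, plus strand: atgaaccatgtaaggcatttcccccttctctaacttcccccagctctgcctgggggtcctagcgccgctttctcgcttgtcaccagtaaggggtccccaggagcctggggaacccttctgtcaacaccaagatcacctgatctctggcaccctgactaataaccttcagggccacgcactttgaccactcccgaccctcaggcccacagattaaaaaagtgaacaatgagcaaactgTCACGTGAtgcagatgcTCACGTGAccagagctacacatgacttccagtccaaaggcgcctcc
Ctsf promoter, chr19:4854915-4855214, plus strand: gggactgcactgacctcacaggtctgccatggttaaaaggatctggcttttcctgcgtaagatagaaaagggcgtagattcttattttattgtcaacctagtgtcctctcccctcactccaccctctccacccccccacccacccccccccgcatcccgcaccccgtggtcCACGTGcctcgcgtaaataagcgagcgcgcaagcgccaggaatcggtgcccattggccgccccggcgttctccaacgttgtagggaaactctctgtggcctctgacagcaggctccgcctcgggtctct
The E-box was present in Ctsa, Ctsd, Ctsf and Ctsl, 4 of 8 cathepsins, and in 8.09% of all genes. The longer form was found in Ctsa and Ctsd, against 1.12% of all genes. Such matches describe these letters in these windows, and binding was not measured.

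Of 13 cathepsin genes outside the group only 4 passed the filter. Ctsk, Ctse and Ctsg rose and Ctsw did not pass the test, against 27.3% of all genes called higher. Ctsk, the collagen-degrading cathepsin of osteoclasts, had 1214.5, 1062.3 and 1057.3 normalized counts in WT and 4690.9, 8033.3 and 4542.2 in Mmp13-/-, a log2 fold change of 2.37 ± 0.24 with an adjusted p of 9.9e-05 in edgeR. It was called in all 15 alternative fits, and the samples of the genotypes were far apart. Ctsg, a serine protease of neutrophil granules, rose by 3.31 ± 0.40 on the log2 scale. The 9 genes below the filter, mostly cathepsins of the placenta, averaged 0.00 to 0.67 normalized counts in WT and 3.22 to 10.7 in Mmp13-/-, alongside the receptor genes given above. Ctsk was 6.58 ± 1.25 times the per-length level of Ctss in WT and 8.80 ± 2.10 times in Mmp13-/-, and these ratios overlapped between genotypes.

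Among 13 endogenous inhibitors of cysteine proteases, 10 were tested, 8 rose and none fell, against 27.3% and 24.3% of all genes. Of the 8, BC100530, Ctla2b, Kng1 and Kng2 had under 10 counts in every WT library and passed the filter through the Mmp13-/- libraries, so the count of 8 rests partly on the filter. At the rate of the receptor genes, background reads would make up 74.8% of the Kng1 counts, 51.9% of Kng2, 48.6% of Ctla2b and 24.6% of BC100530 in Mmp13-/- sample 6. After background subtraction Kng1 was no longer tested and 7 of 9 genes were called higher. Of all genes 49.1% were then called, 51.2% of them higher. BC100530 was at or under 3 counts in every WT library. With WT set at that floor, its mean over the Mmp13-/- samples was at least 6.03-fold higher before that subtraction. Cst3, the secreted cystatin C, did not pass, at 0.24 ± 0.18 on the log2 scale, and was called higher with GC correction at 1.16. Cstb, the cytosolic stefin B, had 298.4, 301.1 and 427.3 normalized counts in WT and 602.6, 511.0 and 510.1 in Mmp13-/-, with every Mmp13-/- sample higher. Its log2 fold change was 0.66 ± 0.18 with an adjusted p of 0.0108 in edgeR. The call of Cstb was kept in 11 of 15 alternative fits. It was lost with limma and without WT sample 2, WT sample 4 or Mmp13-/- sample 1. Ctla2a, a proregion-like inhibitor of cathepsin L, rose by 2.94 ± 0.21 on the log2 scale and Kng2, a kininogen with cystatin domains, by 2.93 ± 0.61, the latter from a mean of 3.20 normalized counts. The stefin A copies are near-identical and their values are uncertain. Cstb stood at 0.127 ± 0.021 of the summed per-length level of the 8 cysteine cathepsins in WT and at 0.210 ± 0.034 in Mmp13-/-, without overlap.

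Of 21 genes that mature and sort cathepsins, 2 rose, 10 fell and 9 did not pass, with a median of -0.39. The shares that rose and fell were 9.52% and 47.6%, against 27.3% and 24.3% of all genes. With GC correction 4 rose and none fell with a median of 0.08, while 37.3% of all genes were called, 70.6% of them higher. M6pr, the cation-dependent mannose 6-phosphate receptor, had 973.7, 834.6 and 1031.3 normalized counts in WT and 1851.3, 1833.7 and 1348.2 in Mmp13-/-. Every Mmp13-/- sample was higher, and the log2 fold change of 0.83 ± 0.16 was called in all 15 alternative fits. Igf2r, the larger mannose 6-phosphate receptor, and Lgmn, the legumain that processes several cathepsins, did not pass, at -0.33 ± 0.17 and 0.26 ± 0.15, though Lgmn was called higher with GC correction at 0.75. Vps35, of the retromer that returns receptors to the Golgi, rose by 1.52 ± 0.20, and by 0.62 with GC correction. Gga1, an adaptor that loads the receptors at the Golgi, had a change of -1.43 ± 0.14 that shrank to -0.15 and was not called with GC correction.

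Of 39 other lysosomal hydrolases, 5 rose and 15 fell with a median of -0.25, but with GC correction 12 rose and 2 fell with a median of 0.23. Before the correction the shares were 12.8% and 38.5%, against 27.3% of all genes called higher and 24.3% called lower. With it 37.3% of all genes were called, 70.6% of them higher. Prcp and Asah1, a carboxypeptidase and acid ceramidase, rose by 1.71 ± 0.18 and 1.02 ± 0.19 on the log2 scale. Plbd2 and Gaa, a phospholipase B-like protein and acid alpha-glucosidase, changed by -1.31 ± 0.13 and -1.26 ± 0.17, and only Plbd2 was still called with GC correction, at -0.42. Among 26 membrane proteins and proton pump subunits of the lysosome, 8 rose and 7 fell with a median of 0.07. These shares of 30.8% and 26.9% are near those of all genes, and with GC correction 11 rose and 3 fell. Lamp2, of the lysosomal membrane, and Atp6v0e, of the pump, rose by 1.50 ± 0.18 and 1.29 ± 0.13, and both were called in all 15 alternative fits.

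Of 11 regulators of lysosomal genes, 1 rose and 7 fell, with a median of -0.70 that was -0.16 with GC correction. These shares of 9.09% and 63.6% stand against 27.3% and 24.3% of all genes. With GC correction 1 rose and 3 fell, while 37.3% of all genes were called, 70.6% of them higher. Tfeb, the factor that binds the E-box in lysosomal promoters, had 1532.8, 1789.6 and 1345.8 normalized counts in WT and 633.0, 641.7 and 488.0 in Mmp13-/-. The groups were far apart and the log2 fold change was -1.40 ± 0.17 with an adjusted p of 0.00018 in edgeR. GC correction took it to -0.06 with an adjusted p of 0.729. Flcn, the folliculin that restrains TFEB, fell by 1.11 on the log2 scale and was called in all 15 alternative fits, though at -0.35 with GC correction. Tfec, a relative of TFEB found in myeloid cells, rose by 2.91 ± 0.36 from a mean of 9.61 normalized counts, and by 2.23 with GC correction. In Mmp13-/- sample 6 Tfec had 43.2 estimated counts over 5.59 kb of exon, where receptor genes gave 4.79 counts per kilobase. Background reads can therefore be a large part of the Tfec counts in that sample.

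**Figure D4:**
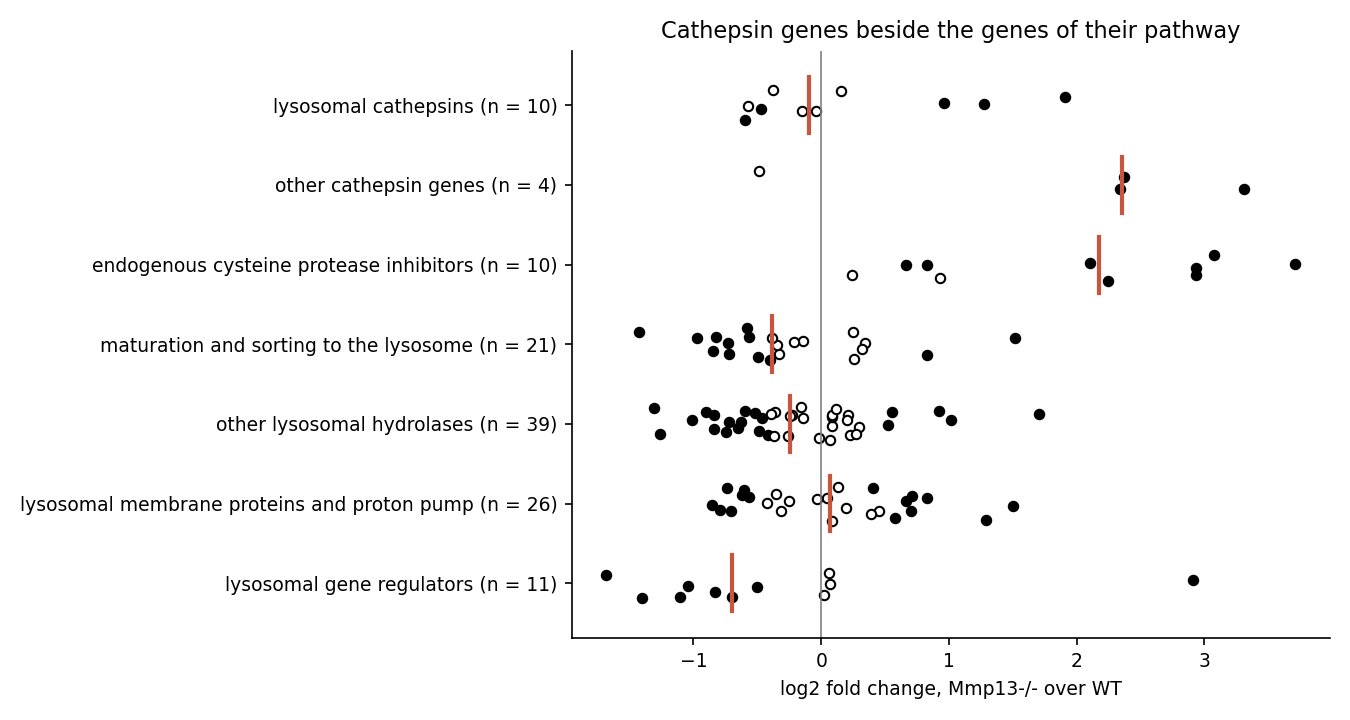
Log2 fold change of each tested gene, Mmp13-/- over WT with TMM scaling, for the lysosomal cathepsins and 6 lists of related genes. Filled points had an adjusted p under 0.05, open points did not, red bars are medians and height within a row carries no value. Most inhibitors that passed the filter lie to the right of 0, while sorting genes, hydrolases and regulators have medians below 0 that shift to 0.08, 0.23 and -0.16 with GC correction.

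Markers of other cells moved alongside Ctss, Ctsh and Ctsk. Their counts stand against 27.3% of all genes tested called higher and 24.3% called lower. With background subtraction 49.1% of all genes were called, 51.2% of them higher, and with upper-quartile scaling 52.1%, 63.9% of them higher. With GC correction 37.3% of all genes were called, 70.6% of them higher. Of 13 macrophage markers 6 rose and none fell, and they summed to 207.0 to 209.3 TMM-scaled CPM in WT and 277.4 to 363.8 in Mmp13-/-. Scaled to library totals alone, these sums were 199.4 to 202.9 and 222.2 to 410.1. Their most abundant gene, Csf1r, had a log2 fold change of 0.44 that was not called, nor was Cd68 at 0.33 or Mertk at 0.37. With GC correction all 3 were called higher, at 1.16, 0.92 and 0.53, and the macrophage markers called higher were 12 of 13, against 10 with background subtraction or upper-quartile scaling. Of 8 osteoclast markers 6 rose and 1 fell, the sum went from 165.6 to 245.1 in WT to 267.4 to 434.2 in Mmp13-/-, and Acp5 rose by 1.78 while Mmp9 at 0.52 was not called. Of those 6, Calcr had under 10 counts in every WT library and passed the filter through the Mmp13-/- libraries. Background reads would make up 39.9% of its counts in Mmp13-/- sample 6. After background subtraction 7 of the 8 osteoclast markers were called higher. With GC correction all 8 osteoclast markers rose, Mmp9 by 1.31, and with library totals alone the sums of the genotypes overlapped. For B cells and dendritic cells 7 of 11 rose and none fell, with overlapping sums of 141.1 to 220.9 in WT and 219.2 to 248.5 in Mmp13-/-. With library totals alone these sums overlapped too, at 136.3 to 212.8 and 179.6 to 280.2. There Cd74, the invariant chain that cathepsin S trims, was at -0.04 and H2-Ab1 at -0.28, neither called, but with GC correction both turned positive and were called higher, at 0.85 and 0.66. Of 10 neutrophil markers 9 rose, S100a9 by 5.19 and Ltf by 1.24, with sums of 143.7 to 300.5 in WT and 728.8 to 1774.1 in Mmp13-/-. T and NK cell markers summed to 10.8 to 13.3 in WT and 22.9 to 24.2 in Mmp13-/-, with 5 of 10 tested higher. Of those 5, Cd3d, Cd3e and Ncr1 had under 10 counts in every WT library and passed the filter through the Mmp13-/- libraries. After background subtraction 2 of 8 tested were higher. Cd247 and Cd4, their most abundant genes, were not called, and Cd4 was called higher with GC correction at 1.01. No marker in these lists was at 0 in all samples of a genotype. Their part in the cathepsin changes was not tested.

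Among markers of the tissue itself some were called as well, against 27.3% of all genes called higher and 24.3% called lower. With GC correction 37.3% of all genes were called, 70.6% of them higher. Of 10 odontoblast markers 2 rose and 3 fell. Dspp, which encodes the main dentin phosphoprotein, rose by 1.13 with overlapping samples. The call of Dspp was kept in 9 of 15 alternative fits. It was lost with DESeq2, with limma and without WT sample 4, WT sample 5, Mmp13-/- sample 1 or Mmp13-/- sample 2. Bglap was not called at -0.19 but was called higher with GC correction at 0.61. Of 11 pulp fibroblast and mural markers 5 rose and 5 fell. Col1a1 and Col3a1, the most abundant, fell by 2.16 and 1.58 on the log2 scale, while Lum, Dcn and Rgs5, named after their values were seen, rose by 2.99, 2.04 and 1.49. With GC correction 5 rose and 3 fell. Skeletal muscle markers, among them Myh1 and Acta1, summed to 45659.1 to 53606.0 TMM-scaled CPM in WT and to 8781.5 to 20575.8 in Mmp13-/-, with 8 of 10 lower. Erythroid markers summed to 895.2 to 1455.8 in WT and 2113.8 to 3966.6 in Mmp13-/-, with 6 of 7 higher. Enamel epithelium markers, with Ambn at 0.95 not called and Krt14 at -1.33, which was not called with GC correction, had overlapping sums, and of 7 endothelial markers 1 rose and 3 fell, with Vwf not called at -0.21, or called higher with GC correction at 0.67, and Kdr at -0.64. With GC correction 5 odontoblast and 3 endothelial markers rose and none fell, and 4 muscle markers were lower. The part of muscle, blood and fibroblast RNA in the cathepsin values was not tested.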

How the data were processed

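Dental pulp RNA of 3 WT and 3 Mmp13-/- mice was grouped by the genotype in the labels, and the 6 samples were treated as independent. The authors used Strand NGS to turn their alignments into estimated counts for each gene, deposited unnormalized and with fractions. From these the authors derived the deposited log2 values, using DESeq size factors and a threshold of 1, and centred every gene at its median. The submitters' processing notes name build mm10, while aligner settings, annotation release and strand setting are not given in the sources used here.

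Estimated counts were rounded and tested in R 4.3.3 with the quasi-likelihood test of edgeR 4.0.16, TMM factors, edgeR's own low-count filter, no covariates and Benjamini-Hochberg adjustment. Of 53342 genes, 24534 passed the filter, all 10 cathepsins among them. Lengths, GC content and overlaps came from GENCODE M21, which matched 99.8% of identifiers.

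The members, gene lists and tests were chosen with earlier results of these data known. Named were all members, Mmp13, 11 preset pathway and marker genes, the 2 genes per direction of each pathway list with the smallest adjusted p over 2-fold, and the 2 most abundant genes of each marker list. Other genes behind a count of 5 or fewer were named after their values were seen. Alternatives were median-of-ratios, upper-quartile and total-count scaling, no filter, at least 10 counts in every sample, DESeq2 1.42.0, limma 3.58.1 on the deposited log2 values, a loess GC correction with span 0.4, each sample left out, a test against a 2-fold change, an adjusted p under 0.01 and, chosen after seeing the data, background subtraction. The 15 alternative fits named in the text leave out the 2-fold test and the stricter threshold. Scripts were tested on simulated data. How far replicate spread and counting error each set the precision was not tested.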

Additional observations from a re-analysis of the deposited data

How the results depend on the processing

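Ctss and Ctsh were called higher in all 15 alternative fits, and 3 members were called higher when any 1 sample was left out. The count of members called lower, 2 with TMM scaling, was the least stable. It was 1 with upper-quartile factors, with at least 10 counts in every sample and with GC correction, 0 with total counts, limma and an adjusted p under 0.01, and 4 without a filter and with DESeq2. Leaving out single samples gave 0 to 3 members lower, with 0 without WT sample 4 and 1 without WT sample 5. Of the genes in each fit, 38.8% were called without a filter, 31.1% with DESeq2, 25.6% with limma and 51.8% with at least 10 counts. Of those calls 65.9%, 64.3%, 61.9% and 50.3% were higher. Without WT sample 4 or 5 the genes called were 40.5% and 43.8%, with 53.4% and 53.7% of calls higher. Members over 2-fold went from 2 to 1 in the test against a 2-fold change. Over the 6 pathway lists, 27 genes were higher and 39 lower with TMM scaling. Upper-quartile factors gave 42 higher and 32 lower, GC correction 40 and 8, and total counts 23 and 11. The calls over all genes moved too. TMM scaling called 51.6% of all genes tested, 53.0% of them higher. The share called was 52.1% for upper-quartile factors, 37.3% for GC correction and 40.6% for total counts. In that order, 63.9%, 70.6% and 69.2% of the calls were higher. The summed per-length level was 422.7 in WT and 344.6 in Mmp13-/- when the longest transcript was the length. Log2 fold changes that changed sign were, with GC correction, Ctsa 0.25, Ctsb 0.10, Ctsd 0.26, Ctsf 0.28, Ctsl -0.07 and Ctsz 0.55. With upper-quartile factors Ctsb was 0.05 and Ctsc 0.16, and with background subtraction Ctsb was 0.00 and Ctsc 0.09. Ctsc was 0.10 with total counts and 0.08 with at least 10 counts, and between -0.20 and 0.11 with single samples left out, the latter without Mmp13-/- sample 6. The causes of these shifts were not tested. No pairing between the genotypes is given in the sample titles, so no paired analysis was run. With 3 samples per genotype, a change that missed the threshold is not shown to be absent.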
